A study of Mus musculus with 12 samples.

Results

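The genes described here encode the proteins that build the centromere and the kinetochore. They are 38 genes taken by name from the count tables, which held 43309 features at day 5 and 42802 at day 9, and 38 of the 38 were found and passed the filter on low counts at both days. For the comparison of the inner with the outer structure, 20 were classed as centromere-bound and 18 as outer kinetochore. The study removed lamin B1, a protein of the nuclear lamina, from mouse neural progenitor cells of strain C57BL/6. The WT groups were LaminB1+/+; Ai3 cells and the cKO groups LaminB1fl/fl; Ai3 cells, and both received a lentivirus with pSox2-Cre, so the controls carried Cre as well. The Sox2 promoter drives Cre, which limits deletion to cells that use this promoter. Ai3 is a reporter that makes EYFP once Cre has acted, and EYFP+ cells were sorted 5 or 9 days after the virus, from cultures in DMEM/F12 with N2/B27 and 10 ng/ml each of EGF and FGF-2. RNA with a poly(A) tail was sequenced from 3 libraries in each of the 4 groups. Whether replicates were separate cultures or animals is not in the labels, so a p-value here reflects the spread between the samples alone, and that spread may be technical.

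Centromeres are marked by nucleosomes that carry the histone variant CENP-A, on which a network of constitutive centromere proteins sits through the whole cell cycle. In mitosis this network recruits the outer kinetochore, in which the Mis12 and Ndc80 complexes and Knl1 form the bridge to spindle microtubules, while motors, the Ska complex and the astrin-SKAP pair strengthen the attachment. Many of these genes are transcribed mainly in dividing cells, late in the cell cycle, and several are known targets of the MuvB and E2F regulators. MuvB complexes bind the cell cycle homology region, or CHR, a short element close to the start site.

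Promoter sequences were looked at because a CHR is often found in genes of mitosis. RefSeq start sites (GRCm38.p6) were given for 34 of the 38 members, and none for Spc24, Nsl1, Zwilch and Ska1. In the 250 bases before the start, on both strands, 10 of 34 members (29.4%) held a CHR match (TTTGAA or TTTAAA), against 25.2% of 32851 promoters. An E2F match (TTTGGCGC, TTTCCCGC, TTTCGCGC or TTTGGCGG) was found in 4 of 34 (11.8%, against 1.96%). CCAAT, the motif of NF-Y, was found in 18 of 34 (52.9%, against 33.8%). Members were counted by gene, with a match at any start site, and the 32851 promoters by start site. Counted by start site, 10, 4 and 20 of 37 member sites held a CHR, E2F or CCAAT match (27%, 10.8% and 54.1%). The last 100 bases before the RefSeq start are shown for members with large falls at day 9 whose CHR match lies in them. For Cenpa, whose annotated gene begins further upstream, the last 30 are shown. The annotated genes of Cenpn and Ska3 also begin upstream of the RefSeq start, at 116921730 and 57826185. The CHR matches of Cenpa, Cenpn and Ska3 therefore lie inside the annotated gene. Pmf1 and Oip5 fell as much, but their matches lie further upstream. Capitals mark CHR and CCAAT matches, read on the gene's own strand, so TTCAAA and ATTGG are matches on the opposite strand.
Cenpa (chr5:30666856-30666885, + strand): cacaaagttgggaTTTAAAagatgcggtgg
Cenpn (chr8:116921640-116921739, + strand): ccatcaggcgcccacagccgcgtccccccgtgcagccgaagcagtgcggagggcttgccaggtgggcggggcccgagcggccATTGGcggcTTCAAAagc
Ska3 (chr14:57826164-57826263, - strand): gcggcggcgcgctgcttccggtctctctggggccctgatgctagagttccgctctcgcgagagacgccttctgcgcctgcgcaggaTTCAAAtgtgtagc
Cenpw (chr10:30200541-30200640, - strand): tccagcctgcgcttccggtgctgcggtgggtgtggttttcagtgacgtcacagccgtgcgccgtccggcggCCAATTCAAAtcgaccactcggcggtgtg
Zwint, which fell little at day 9 and was added after its values were seen, also held a CHR match close to its start.
Zwint (chr10:72654746-72654845, + strand): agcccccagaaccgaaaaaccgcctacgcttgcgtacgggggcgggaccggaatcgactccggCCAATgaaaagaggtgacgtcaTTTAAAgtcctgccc
Large falls were also seen without a CHR match in the 250 bases. Among these, Knstrn, Cenpm, Nuf2 and Spc25 had log2 fold changes of -3.87, -3.48, -3.00 and -2.98 at day 9. Cenpf, not called at day 9, held a CHR match at position -154 from the start. Mis12 and Ska2, shown as members not called lower at day 9, held CCAAT matches and no CHR match in their 250 bases.
Mis12 (chr11:71019511-71019610, + strand): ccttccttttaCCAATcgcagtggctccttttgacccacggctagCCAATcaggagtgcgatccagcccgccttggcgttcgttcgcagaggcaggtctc
Ska2 (chr11:87109161-87109260, + strand): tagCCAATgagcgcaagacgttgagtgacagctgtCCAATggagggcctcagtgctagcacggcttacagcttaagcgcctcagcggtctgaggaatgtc

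Libraries held 26720476 to 32127629 counts at day 5 and 13315273 to 24662809 at day 9. Lmnb1, the deleted gene, was at 247.4 to 288.3 CPM (the count relative to the TMM-adjusted library total) across WT and 37.79 to 45.04 CPM across cKO at day 5, and at 155.7 to 209.7 against 32.84 to 39.4 CPM at day 9. Structural RNA features, chiefly Gm42418, took 69.74% and 68.38% of counts in cKO replicates 1 and 3 of day 9, 0.3498% in cKO replicate 2 and 15.72% to 34.58% in WT. Those 2 cKO libraries were therefore shallow for mRNA: the median member had 15.5 and 18.5 counts there, against 92 in cKO replicate 2 and 277.5 to 298.5 in WT, and 11 and 7 members had fewer than 10 counts. The 8 neural progenitor markers, among them Sox2 and Nes, summed to 3864 to 5278 CPM across WT and 4157 to 5167 across cKO at day 5. Structural RNA took 14.14% of counts in cKO replicate 2 of day 5 and 0.0739% to 0.506% in the other 5 libraries of that day. At day 5, WT replicate 1 and cKO replicate 2 stood apart from the other 4 libraries, as described next.

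Per transcript length, Zwint was the most abundant member and Knl1 the least in WT cells at both days. TPM, a level scaled for transcript length, was set to a common total after structural RNA was taken out, and levels were not compared between days because each day has its own table. At day 5 the median member was at 18.51 TPM in WT, from 4.089 for Knl1 to 348.1 for Zwint, a partner of Knl1. Cenpa (201.8 ± 27.4 TPM, SD, n = 3), Pmf1 and Knstrn followed. At day 9 the WT median was 11.41 TPM, from 0.3843 to 241.8 TPM, again for Knl1 and Zwint. The subunits of the Ndc80 complex, which works as a tetramer, were not at one level in WT at day 9: Spc25 was at 37.8 ± 7.06 TPM, Nuf2 at 30.7 ± 6.94, Spc24 at 25.6 ± 1.06 and Ndc80 at 3.85 ± 2.04. The ranges of Spc25 and Nuf2 overlapped, and the highest Ndc80 value, 5.358 TPM, lay under the lowest of Spc24, 24.47 TPM. In WT at day 5, Ndc80 ran from 9.227 to 38.02 TPM. There it overlapped Nuf2 (27.33 to 76.44) and Spc25 (34.12 to 74.35), but not Spc24 (40.14 to 52.53). Centromere-bound members had a lower median than outer members at both days, 15.93 against 24.36 TPM in WT at day 5 and 9.506 against 17.08 TPM at day 9.

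The first comparison asked which genes differ between cKO and WT 5 days after the virus. No member passed the test: of 38, 0 were called lower and 0 higher (adjusted p under 0.05 by the quasi-likelihood test of edgeR with Benjamini-Hochberg adjustment), against 0.00673% of all 14849 genes tested, which is Lmnb1 alone. At an unadjusted p under 0.05 the count of members was also 0, and DESeq2 called 0. The precision at day 5 was limited. Lmnb1, far lower in cKO without overlap, reached an edgeR adjusted p of only 0.0493. The SE of members ran from 0.19 for Hjurp to 1.22 for Knl1, so changes may have been missed. The median log2 fold change (cKO minus WT) of members was 0.08, against 0.01 over all genes, and it ranged from -0.48 for Cenpe to 0.60 for Knl1. In 0 of 38 members did all cKO libraries lie below or above all WT libraries (1.35% and 1.5% of all genes). The summed level of the members ran from 2135 to 2456 CPM across WT and from 2311 to 2358 across cKO.

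The spread between libraries of 1 genotype was wide for some members at day 5, in WT and in cKO. Cenpe, the kinesin of the fibrous corona, was at 109.6, 21.34 and 13.01 CPM across WT, against 12.87, 81.92 and 8.397 across cKO, in replicate order. Cenpf, a large corona protein that binds microtubules, was at 143.8, 30.03 and 17.79 CPM across WT, against 17.75, 114.6 and 13.67 across cKO. Knl1, the scaffold on which the checkpoint proteins dock, was at 33.48, 9.363 and 3.924 CPM across WT, against 4.101, 62.34 and 4.441 across cKO. For these 3 genes WT replicate 1 and cKO replicate 2 were several times above the other libraries of their genotype, so the groups overlapped. Cenpa, whose product is the histone variant itself, went the other way with 106, 154.6 and 167.2 CPM across WT against 174.1, 92.41 and 159 across cKO, with the lowest value of each genotype in the same pair of libraries. Over the 38 members, the log2 distance of a library from the mean of the other 2 of its group ranged from -0.78 to 2.71 in WT replicate 1 and from -1.06 to 3.85 in cKO replicate 2. Spearman's rho of this distance with the length of the longest coding transcript was 0.372 in each of these libraries, and with its GC content -0.677 and -0.71. Over 13151 genes rho was 0.428 and 0.531 for length and -0.771 and -0.727 for GC, with the same signs as among the members. These are descriptions across genes of 1 library, and genes are not replicates. Without those 2 libraries together, 0 members were called at day 5, against 7 lower and 12 higher of 14745 genes.

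**Figure D1:**
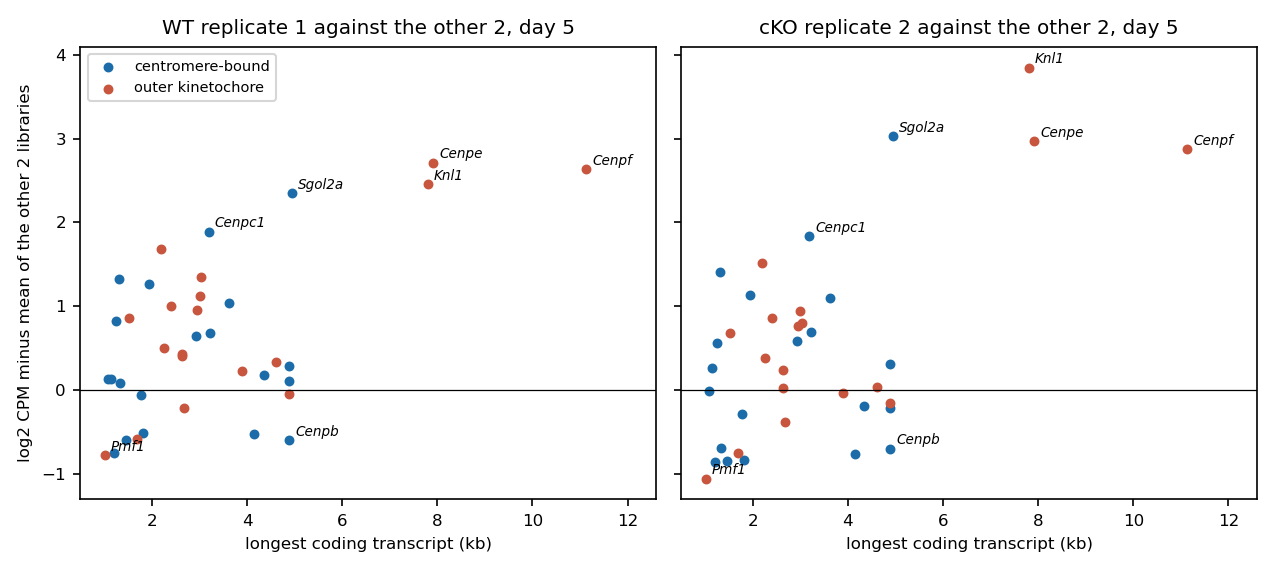
Each point is 1 of the 38 members at day 5, with the length of its longest coding transcript in kilobases on the x axis and, on the y axis, its log2 CPM in WT replicate 1 (left) or cKO replicate 2 (right) minus the mean of the other 2 libraries of that group. Cenpe, Cenpf, Knl1 and Sgol2a sit highest in both panels, up to 2.71 on the left and 3.85 on the right, while Pmf1 and Cenpb lie below 0.

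The second comparison asked the same question at day 9. Here 28 of the 38 members were lower in cKO, 0 were higher and 10 were not called, against 22.6% lower, 21% higher and so 43.6% called among all 14617 genes tested. The median log2 fold change of the members was -1.73, against 0.01 over all genes. Tested instead on log2(TPM + 1) with limma, 16 members were called lower and 0 higher. Among all 14617 genes that fit called 448 lower and 62 higher, with the median of all genes at -0.79. It used TPM as deposited, with structural RNA left in. The calls that ended there were those of Hjurp, Mis18a, Cenpb, Cenpi, Cenpl, Cenpp, Cenpt, Cenpu, Dsn1, Zwint, Zwilch and Spag5. In CPM, all cKO libraries lay below all WT libraries for 30 of 38 members (30.2% of all genes), and above them for 1, Cenpc1 (27.6% of all genes). The summed level of the members was 897.5, 1023 and 914.7 CPM across WT, against 421.2, 450.9 and 448.3 across cKO, so the groups did not overlap. Zwint, Hjurp and Cenpb, the 3 highest by CPM in WT, made up 48.1% to 54% of that sum in WT and 66.7% to 69.5% in cKO. The other 35 members summed to 420.6 to 530.6 CPM in WT and 137.4 to 141.1 in cKO. In bulk RNA, fewer dividing cells and less RNA per dividing cell cannot be told apart.

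Markers of cell types moved as well at day 9. Of 8 neural progenitor markers 5 were lower and 1 higher, and their summed level was 2724 to 3102 CPM in WT and 1328 to 1524 in cKO. Of 6 tested neuron markers 5 were higher (125.2 to 286.4 CPM in WT, 512.4 to 576.5 in cKO), of 6 astrocyte markers 5 were higher (469 to 672.7 against 1462 to 1606 CPM), and of 6 tested oligodendrocyte markers 4 were higher and 2 lower (737.6 to 846.4 against 908 to 1064 CPM). Microglia, endothelial, and mural and fibroblast markers each summed, list by list, to 3.269 CPM at most in any library. Of these lists 1 endothelial marker, Kdr, and 1 mural marker, Pdgfrb, were tested and both were higher in cKO (log2 fold changes 0.76 and 1.96; edgeR adjusted p = 0.0412 and 0.00661), with Aif1 and Cdh5 at 0 in all 6 libraries of day 9. Ependymal markers summed to 8.73 to 9.538 CPM in WT and 5.768 to 7.458 in cKO, with Tmem212 at 0 in all 6 and the 2 tested markers lower. The part of these markers in the falls described here was not tested.

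**Figure D2:**
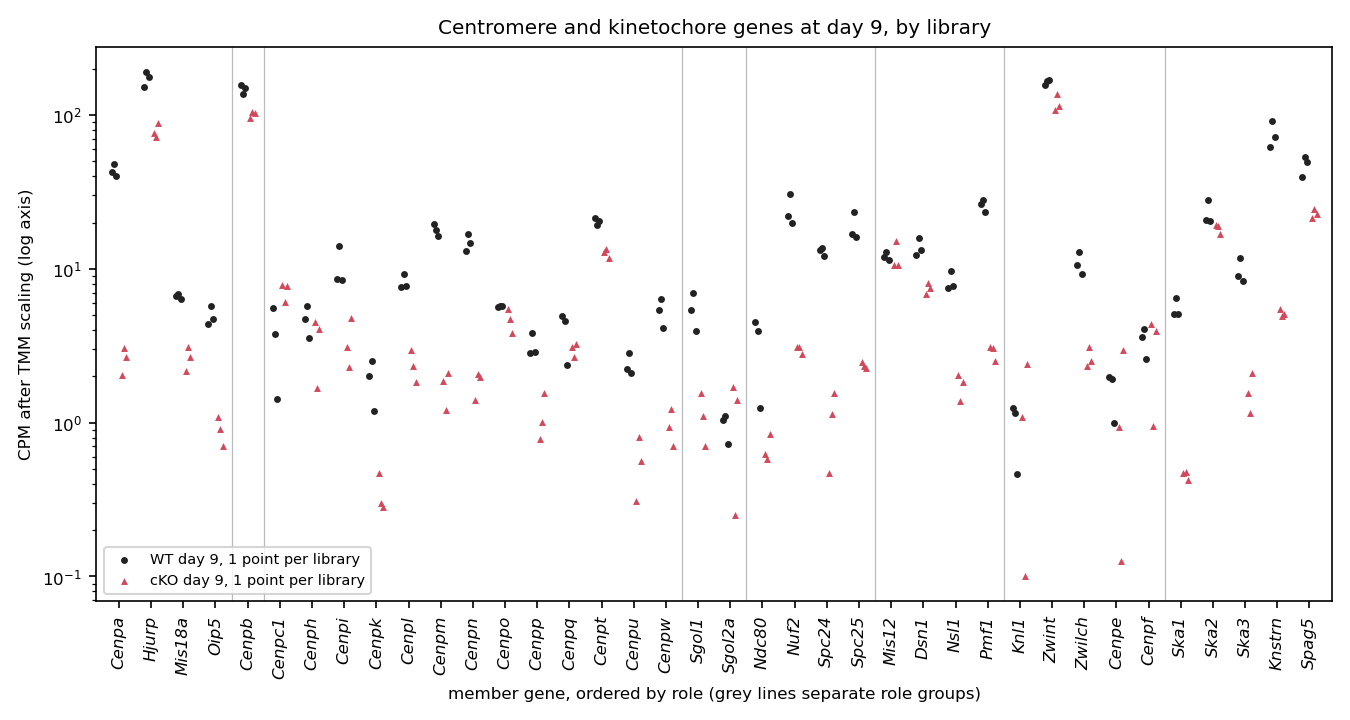
Each member's level at day 9 in CPM after TMM scaling (log axis), with 1 point per library: 3 WT libraries as black circles and 3 cKO libraries as red triangles, genes ordered by role. Most red triangles lie below the black circles, by the widest gap for Cenpa and Knstrn, while for Cenpc1, Cenph, Cenpq, Sgol2a, Mis12, Knl1, Cenpe and Cenpf they do not all do so.

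Of the histone variant and its loading machinery 4 of 4 fell, and the calls of Hjurp and Mis18a ended on log2(TPM + 1) (limma adjusted p = 0.408 and 0.209). Cenpa was at 42.78, 48.26 and 39.99 CPM across WT, against 2.027, 3.068 and 2.673 across cKO. Every cKO library was far below every WT library, and the cKO mean was 5.93% of the WT mean. This was the largest fall of any member in this fit (log2 fold change -4.02 ± 0.18 SE with 3 libraries per group; edgeR adjusted p = 7.12e-06), and it rested on 13 and 19 counts in cKO replicates 1 and 3. Knstrn fell more than Cenpa with GC content and length offsets (-4.08 against -3.86), without cKO replicate 1, and without cKO replicates 1 and 3. Hjurp, the chaperone that deposits CENP-A, was at 152.6, 189.8 and 175.6 CPM across WT, against 76.7, 72.39 and 88.93 across cKO. The groups did not overlap, and cKO kept 45.9% of the WT mean (-1.12 ± 0.13 SE; edgeR adjusted p = 0.000359). Mis18a and Oip5, subunits of the Mis18 complex that licenses loading, had log2 fold changes of -1.28 and -2.45. Cenpb, which binds a sequence box in centromeric satellite DNA, was at 156.2, 136.3 and 148.7 CPM across WT, against 95.87, 103.9 and 103.1 across cKO. Its fall was small and without overlap (-0.54 ± 0.10 SE; edgeR adjusted p = 0.00388), and its exons overlap those of Spef1 on the same strand, so reads of the pair may be shared.

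In the constitutive centromere network 9 of 13 members fell, 0 rose and 4 were not called. The largest fall was in Cenpm, a small subunit that binds Cenpi, at 19.44, 17.75 and 16.46 CPM across WT and 1.871, 1.207 and 2.111 across cKO. The groups lay far apart (-3.48 ± 0.23 SE; edgeR adjusted p = 2.76e-05). Cenpn, which reads the CENP-A nucleosome together with Cenpl, fell from 14.9 ± 1.89 to 1.81 ± 0.36 CPM (mean ± SD), and Cenpl had a log2 fold change of -1.80. Cenpk, Cenpw, Cenpu, Cenpi, Cenpp and Cenpt also fell, with log2 fold changes from -2.50 for Cenpk to -0.68 for Cenpt. Cenpt and Cenpw, histone-fold partners that recruit the Ndc80 complex, had log2 fold changes of -0.68 ± 0.12 and -2.37 ± 0.30 SE. Their difference was not tested, and the call of Cenpt ended with GC content and length offsets (-0.25; edgeR adjusted p = 0.0732).

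The 4 network members not called were Cenpc1, Cenph, Cenpo and Cenpq. Cenpc1, which encodes CENP-C, the scaffold that links the CENP-A nucleosome to the Mis12 complex, was at 5.538, 3.765 and 1.425 CPM across WT, against 7.794, 6.06 and 7.739 across cKO. It was the single member with all cKO libraries above all WT libraries (0.99 ± 0.46 SE; edgeR adjusted p = 0.121), and it was not called. Over the alternatives its adjusted p ran from 0.0363 to 0.931 (edgeR, DESeq2 or limma). Without WT replicate 1 it was called higher (1.45 ± 0.42 SE), while with GC content and length offsets its log2 fold change was 0.30. Cenpo was at 5.651, 5.773 and 5.729 CPM across WT, against 5.456, 4.752 and 3.799 across cKO. All its cKO values were lower, by little (-0.29 ± 0.19 SE; edgeR adjusted p = 0.231). Cenph was at 4.69, 5.737 and 3.548 CPM across WT, against 4.521, 1.685 and 4.081 across cKO (edgeR adjusted p = 0.3). Cenpq was at 4.944, 4.59 and 2.385 CPM across WT, against 3.118, 2.665 and 3.236 across cKO (edgeR adjusted p = 0.296). For both genes the groups overlapped. In the O-P-Q-U module, Cenpp (-1.54 ± 0.32 SE) and Cenpu (-1.93 ± 0.38 SE) were called lower and Cenpo and Cenpq were not.

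Of the 2 shugoshins, which guard centromeric cohesion, 1 fell. Sgol1, which protects cohesin until anaphase, was at 5.425, 6.92 and 3.926 CPM across WT, against 1.559, 1.106 and 0.7035 across cKO, without overlap (-2.28 ± 0.34 SE; edgeR adjusted p = 0.00146). Sgol2a was at 1.045, 1.112 and 0.727 CPM across WT, against 1.715, 0.2514 and 1.407 across cKO. Its cKO libraries lay on both sides of WT, with replicate 2 lowest (0.02 ± 0.71 SE; edgeR adjusted p = 0.987). The difference between the 2 genes was not tested.

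The Ndc80 complex, the main microtubule binder of the kinetochore, fell in all 4 subunits, with a median log2 fold change of -2.99. Spc24, which anchors the complex at the inner side, was at 13.17, 13.59 and 12.16 CPM across WT, against 0.4677, 1.132 and 1.548 across cKO. The cKO mean was 8.09% of WT, without overlap (-3.58 ± 0.29 SE; edgeR adjusted p = 7.62e-05). Ndc80 itself was at 4.492, 3.944 and 1.251 CPM across WT, against 0.6235, 0.5783 and 0.8443 across cKO, and WT replicate 3 came close to the cKO libraries (-2.29 ± 0.53 SE; edgeR adjusted p = 0.0111). Its call ended without cKO replicate 2 (edgeR adjusted p = 0.0673). Nuf2 (-3.00 ± 0.20 SE) and Spc25 (-2.98 ± 0.20 SE) fell by nearly the same amount.

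In the Mis12 complex, which joins the inner network to the outer kinetochore, 3 of 4 subunits fell and the subunit that gives it its name did not pass the test. Pmf1 was at 26.47, 27.9 and 23.27 CPM across WT, against 3.118, 3.043 and 2.533 across cKO, with the groups far apart (-3.15 ± 0.15 SE; edgeR adjusted p = 9.31e-06). Mis12 was at 11.98, 12.91 and 11.43 CPM across WT, against 10.6, 15.16 and 10.55 across cKO. The groups overlapped, with cKO replicate 2 the highest of the 6 (0.02 ± 0.17 SE; edgeR adjusted p = 0.939). Nsl1 and Dsn1 lay between, at -2.30 ± 0.23 and -0.87 ± 0.15 SE. An exon of Mis12 overlaps an exon of Derl2 on the opposite strand, and whether strand was used in counting is not given in the sources used here, so reads of Derl2 may be included.

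The Knl1 arm and the corona had the smallest share of falls among the 8 role groups, 2 of 5. Zwilch, a subunit of the complex that brings dynein to kinetochores, was at 10.54, 12.94 and 9.19 CPM across WT, against 2.338, 3.093 and 2.533 across cKO, without overlap (-1.996 ± 0.21 SE; edgeR adjusted p = 0.000235). Zwint was at 156.6, 166.3 and 169.8 CPM across WT, against 108.2, 137.2 and 115.1 across cKO. Its fall in CPM was small but without overlap (-0.45 ± 0.12 SE; edgeR adjusted p = 0.0166). Its call ended without WT replicate 2 or without cKO replicate 1 or 3 (edgeR adjusted p = 0.0601, 0.0682 and 0.0604). In TPM without structural RNA, Zwint ran from 229.3 to 255.1 across WT and from 55.89 to 239.5 across cKO, so there the groups overlapped.

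The 3 others of this group were low and split by library. Knl1 was at 1.243, 1.147 and 0.4653 CPM across WT, against 1.091, 0.1006 and 2.392 across cKO (0.10 ± 1.03 SE; edgeR adjusted p = 0.947). Cenpe was at 1.978, 1.936 and 0.9888 CPM across WT, against 0.9353, 0.1257 and 2.955 across cKO (-0.50 ± 1.005 SE; edgeR adjusted p = 0.709). Cenpf was at 3.616, 4.088 and 2.588 CPM across WT, against 4.365, 0.9555 and 3.94 across cKO (-0.26 ± 0.55 SE; edgeR adjusted p = 0.724). In each of the 3 genes cKO replicate 2 was the lowest of the 6 libraries and at least 1 other cKO library was above WT replicate 3. With cKO replicate 2 as the single cKO library, log2 fold changes were -3.23 for Knl1, -3.69 for Cenpe and -1.87 for Cenpf. Sgol2a was at -1.95 and Cenph at -1.50. In that library Knl1 had 4 counts, Cenpe 5, Cenpf 38, Sgol2a 10 and Cenph 67. Knl1, Cenpe and Cenpf have the longest transcripts of the members (7800, 7910 and 11130 bases). The log2 distance of cKO replicate 2 from the mean of the other 2 cKO libraries was set against transcript length. Spearman's rho was -0.274 over the members and -0.411 over 12473 genes, and the part of length in these falls was not tested. In that single-library fit Ndc80 was at -2.51 and Zwint at -0.29, and the lone cKO library is assumed to vary like the WT libraries.

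Among the Ska complex and the astrin-SKAP pair, which stabilise attached microtubules, 4 of 5 fell. Knstrn, which encodes SKAP, was at 61.96, 91.51 and 71.71 CPM across WT, against 5.456, 4.928 and 5.066 across cKO. The cKO libraries lay close to each other, far under WT, and kept 6.86% of the WT mean (-3.87 ± 0.18 SE; edgeR adjusted p = 7.34e-06). Spag5, which encodes its partner astrin, fell less (-1.05 ± 0.14 SE). Ska1 and Ska3 had log2 fold changes of -3.57 ± 0.27 and -2.68 ± 0.27 SE, and Ska1 rested on 3 counts each in cKO replicates 1 and 3. Ska2, the third subunit, was at 20.88, 28.15 and 20.59 CPM across WT, against 19.33, 18.88 and 16.74 across cKO, lower in every cKO library by a small amount (-0.34 ± 0.16 SE; edgeR adjusted p = 0.108).

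**Figure D3:**
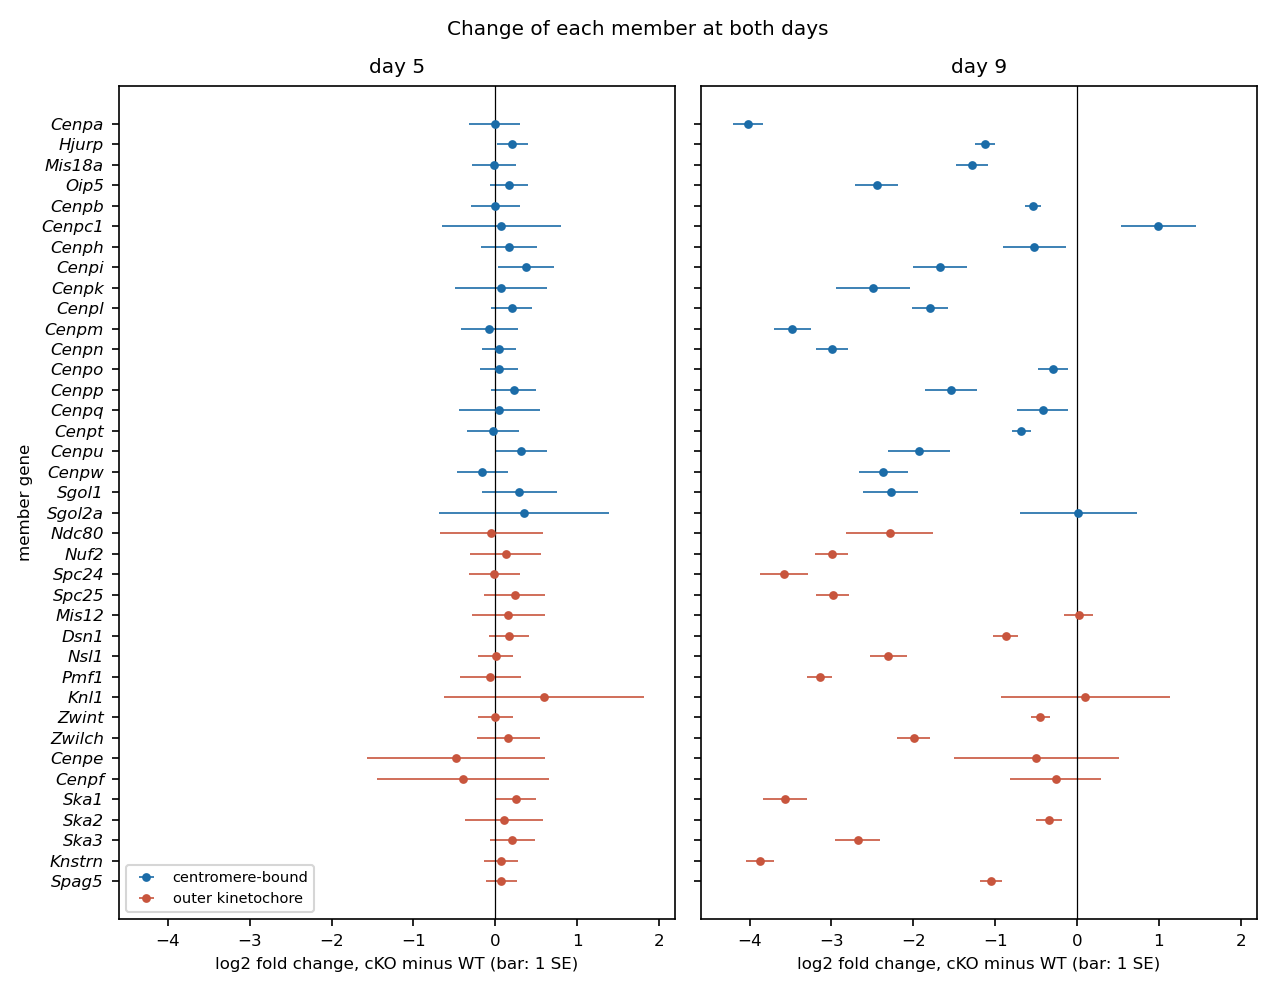
Log2 fold change (cKO minus WT) of each of the 38 members at day 5 (left) and day 9 (right), with bars of 1 standard error and colours for centromere-bound and outer kinetochore members. At day 5 the points lie between -0.48 and 0.60, and at day 9 between -4.02 and 0.99.

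At day 9, 15 of 20 centromere-bound and 13 of 18 outer members fell, 75% and 72.2%, against 22.6% of all genes, and the difference between the classes was not tested. On log2(TPM + 1) the counts were 7 and 9 (448 of 14617 genes lower), and with GC content and length offsets 14 and 15 (2914 of 12473 genes lower). Their median log2 fold changes were -1.60 and -2.14, against 0.01 over all genes. The difference of the medians, 0.54, moved between 0.30 and 0.67 as single libraries of day 9 were left out, to 1.03 without cKO replicates 1 and 3, and to -0.04 on log2(TPM + 1), so its size and its sign depend on the setting. Within each class the range was wider than this gap, from -4.02 to 0.99 among centromere-bound and from -3.87 to 0.10 among outer members.

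Level and precision were set beside the calls. The median WT level was 11.9 CPM for the 28 called and 3.77 CPM for the 10 not called, and the median SE of the log2 fold change was 0.21 and 0.43. Exons of a gene on the opposite strand overlapped 5 of the 10 not called (Cenpo, Cenpq, Sgol2a, Mis12, Ska2) and 8 of the 28 called. By transcript length, 11 of 13 members under 2000 bases fell, 11 of 14 between 2000 and 4000 bases, and 6 of 11 over 4000 bases, with median log2 fold changes of -2.50, -1.80 and -0.54. Spearman's rho of the day 9 log2 fold change with length was 0.489 over the 38 members and 0.353 over 12473 genes, as a description across genes. With offsets that remove trends of GC content and length in each library, 29 members were lower, against 2914 lower and 2548 higher of 12473 genes. Cenpf and Ska2 were gained and Cenpt was lost (log2 fold changes -1.43, -1.08 and -0.25, edgeR adjusted p = 0.0228, 0.00151 and 0.0732). Of the 10 members with a CHR match 9 fell, with a median of -2.41, and of the 24 without one 15 fell, with a median of -1.09. For the other motifs the medians lay close together. Of 4 members with an E2F match 4 fell (median -1.33) and of 30 without one 20 fell (-1.41), and of 18 with CCAAT 12 fell (-1.46) and of 16 without it 12 fell (-1.41). None of these splits was tested.

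Lists of other genes of mitosis were read against the same shares of all genes, 22.6% lower and 21% higher. Of 10 spindle assembly checkpoint genes 9 fell and 1 rose: Cdc20, the activator of the anaphase-promoting complex that the checkpoint restrains, fell from 67.1 ± 7.56 to 5.02 ± 1.28 CPM (-3.75 ± 0.19 SE; edgeR adjusted p = 1.02e-05). The gene that rose was Tpr, a nuclear pore protein that also binds Mad1 (2.70 ± 0.74 SE; edgeR adjusted p = 0.0363). Of 5 genes of the chromosomal passenger complex and its histone kinase 5 fell, led by Cdca8, which encodes borealin (-3.63 ± 0.20 SE; edgeR adjusted p = 1.22e-05). Of 15 genes listed as other centromere and kinetochore genes 9 fell and 2 rose, and whether each acts there was not examined. Among those that fell was Kntc1, the partner of Zwilch (-2.28 ± 0.32 SE; edgeR adjusted p = 0.00103). Casp8ap2 and Rsf1 were the 2 that rose (3.27 ± 0.81 and 2.51 ± 0.51 SE). Their cKO libraries, and those of Tpr, spread widely. With SD as the error, Casp8ap2 went from 0.472 ± 0.179 CPM (WT) to 4.858 ± 3.419 (cKO). Rsf1 went from 4.189 ± 1.675 to 24.36 ± 12.16 CPM, and Tpr from 4.176 ± 0.802 to 27.82 ± 18.52. In the comparison between days described below, 0 genes of the checkpoint list or of this list were called higher. Of 12 microtubule plus-end and motor genes 4 fell and 3 rose, with a median of 0.07, so the share of falls (33.3%) lay near that of all genes. The smallest adjusted p was that of the chromokinesin Kif22 (-3.71 ± 0.17 SE; edgeR adjusted p = 7.12e-06). Of 8 proliferation markers 6 fell, led by Ccnb1, which encodes cyclin B1 (-3.63 ± 0.17 SE; edgeR adjusted p = 8.85e-06). The 2 not called were Mki67 (-0.28 ± 0.84 SE; edgeR adjusted p = 0.807) and Tyms (-0.50 ± 0.41 SE; edgeR adjusted p = 0.354). At day 5, 0 genes of these 5 lists were called.

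**Figure D4:**
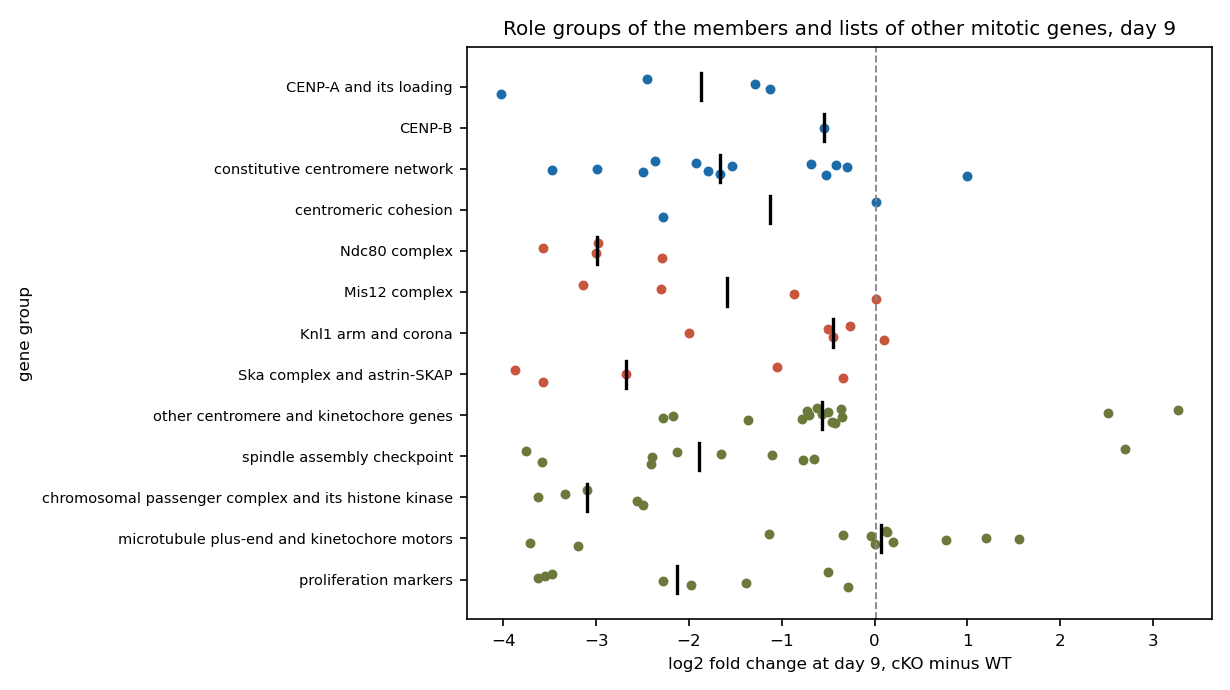
Log2 fold change at day 9 (x axis, cKO minus WT) of each gene in the role groups of the members, with blue for centromere-bound and red for outer kinetochore members, and in 5 lists of other mitotic genes in green. Black bars mark the median of a group and the dashed line the median of all tested genes, 0.01. The Ndc80 complex (-2.99) and the passenger complex (-3.10) have the lowest medians of the 13 groups.

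The third comparison asked whether the change differed between the days, as the day 9 log2 fold change minus that of day 5 over all 12 libraries. It was lower at day 9 for 23 of the 38 members and higher for 0, against 5.17% lower, 2.58% higher and so 7.75% called among all 15329 genes tested. The 23 were 12 centromere-bound and 11 outer members, and the median over all 38 was -2.003 (all genes 0.00). The CENP-A loading group passed in 4 of 4 genes, with Cenpa at -4.02 ± 0.37 SE (edgeR adjusted p = 0.000101). The Ndc80 complex passed in 3 of 4, without Ndc80 itself (-2.24 ± 0.95 SE; edgeR adjusted p = 0.227). The Mis12 complex passed in 3 of 4, without Mis12 (-0.15 ± 0.53 SE; edgeR adjusted p = 0.913), and the Ska and astrin-SKAP group in 4 of 5, without Ska2. The Knl1 arm and corona passed in 1 of 5, Zwilch (-2.17 ± 0.47 SE; edgeR adjusted p = 0.0162). Cenpb, Cenpk, Cenpt, Ndc80 and Zwint were called at day 9 and not for the difference between days. With GC content and length offsets 26 members passed, against 1524 lower and 1241 higher of 13093 genes. Cenpb, Cenpk, Ndc80 and Ska2 were gained (edgeR adjusted p = 0.0433, 9.91e-05, 0.0387 and 0.012) and Cenpw was lost (0.0514). Fewer members, and fewer of all genes, passed with cKO replicates 1 and 3 of day 9 left out together. The median over the 38 members was then -2.05.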

How the data were processed

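The authors deposited expected counts (RSEM gene estimates) and TPM per gene in 1 table of each kind per day, per the file headers. The submitters' processing notes name RSEM, Bowtie2 and the build mm10. For versions, gene annotation, trimming and strand, settings are not given in sources used here. Expected counts were rounded to whole numbers. Day 5 identifiers were matched to symbols for 42425 of 43309 features. Members carried a newer or older symbol in 2 cases at day 5 (Sgo1, Sgo2a) and 1 at day 9 (Casc5 for Knl1).

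Tests ran across all genes with edgeR 4.0.16 under R 4.3.3 (filterByExpr, TMM, robust quasi-likelihood fit), cKO against WT within each day, and the day difference as an interaction over 12 libraries and 41598 symbols present once in both tables. P-values were Benjamini-Hochberg adjusted over all tested genes with a threshold of 0.05, and SE is the absolute log2 fold change over the root of F. Counts of lists were described and not tested. The edgeR fits were also run on simulated counts with the same dispersion for every gene. That simulation had no shift between libraries in structural RNA, GC content or length, so it does not cover those features of these data. DESeq2 1.42.0, limma 3.58.1 on deposited TPM, and other scalings, filters and left-out libraries were alternatives. Totals were 13315273 to 32127629 counts, and in small counts precision is limited by counting. Motifs were searched in RefSeq promoters (GRCm38.p6).

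In each role group the members with the largest and smallest change at day 9 and all not called were given by library, and from each other list the gene with the smallest adjusted p. Values of other genes, chosen after being seen, were added. The members, lists and rules were chosen with earlier results of these data known.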

Additional observations from a re-analysis of the deposited data

Results flagged for a closer look

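For 23 members the change between cKO and WT differed between the days by the interaction test over all 12 libraries (edgeR adjusted p under 0.05, Benjamini-Hochberg; 7.75% of all genes passed). The values are the day 9 log2 fold change minus the day 5 log2 fold change. They were -4.02 for Cenpa, -1.33 for Hjurp, -1.28 for Mis18a and -2.62 for Oip5 in the CENP-A loading group. In the constitutive network they were -2.01 for Cenpi, -1.99 for Cenpl, -3.37 for Cenpm, -3.05 for Cenpn, -1.75 for Cenpp, -2.24 for Cenpu and -2.22 for Cenpw, and in centromeric cohesion -2.57 for Sgol1. In the Ndc80 complex they were -3.12 for Nuf2, -3.58 for Spc24 and -3.21 for Spc25, and in the Mis12 complex -1.04 for Dsn1, -2.29 for Nsl1 and -3.09 for Pmf1. Zwilch was at -2.17, Ska1 at -3.82, Ska3 at -2.85, Knstrn at -3.94 and Spag5 at -1.12. Mis18a, Cenpi, Cenpp, Sgol1 and Dsn1 were each lost in at least 1 fit that left out a single library.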

How the results depend on the processing

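At day 5, 0 members were called under every alternative run, which does not show that their levels were equal, given the limited precision. At day 9 the count of 28 lower was the same with DESeq2, RLE or upper quartile scaling, no filter, no structural RNA and the replicate block. Those fits called the same 28 genes, among 2766 to 3335 genes lower in all. Without single libraries it was 27 to 28 lower and 0 to 1 higher (27 to 29 called in all, and 12 to 13 outer lower). Among all genes, 2279 to 3841 were lower in those fits. On log2(TPM + 1) 16 were lower (7 centromere-bound, 9 outer) and on log2(TPM + 0.1) 17 (8 centromere-bound). Of all 14617 genes 448 and 561 were lower in these fits, and the median of all genes itself moved to -0.79 and -1.02. Both fits used TPM as deposited, with structural RNA left in, unlike the TPM levels given above. The cause of the move was not tested.

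The median of centromere-bound members minus that of all genes was -1.62 at day 9. It was -1.80 with no filter, -1.90 with GC content and length offsets (chosen after seeing the data), -0.89 on log2(TPM + 1) and -1.40 on log2(TPM + 0.1), and -1.75 to -1.42 without single libraries. For outer members it was -2.15, and -2.33, -2.37, -0.84 and -1.65 under the same settings, -2.28 to -2.002 without single libraries, and -2.77 without cKO replicates 1 and 3. The centromere-bound median minus the outer median was 0.54, and -0.045 on log2(TPM + 1), 0.25 on log2(TPM + 0.1), 0.30 to 0.67 without single libraries, 1.03 without cKO replicates 1 and 3, and 0.69 without Cenpe, Cenpf, Knstrn and Spag5. Without cKO replicates 1 and 3, the log2 fold changes of Sgol2a (-1.95) and Knl1 (-3.23) reversed in sign, on 10 and 4 counts in cKO replicate 2.

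For the day difference the count was 23, and 26 with GC content and length offsets (1524 of 13093 genes lower). It was 18 to 24 without single libraries, 8 to 13 of them centromere-bound and 10 to 11 outer. Among all genes, from 525 of 15997 to 1235 of 15591 were lower in those fits. The medians of the 2 classes relative to all genes were -2.01 to -1.69 and -2.36 to -1.73. Without cKO replicates 1 and 3 of day 9 it was 12, with 6 centromere-bound and 6 outer, where fewer samples were fitted.

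With the replicate block the day difference was called for 20 members, without Mis18a, Cenpi and Dsn1. Among all 15329 genes that fit called 541 lower and 251 higher. Whether the numbers pair the samples is not in the labels. Deviations of same-numbered libraries correlated at -0.72, -0.50 and 0.53 at day 5 and at 0.00, -0.20 and -0.06 at day 9. At day 5, WT replicate 1 and cKO replicate 2, the libraries that stood apart, correlated at 0.76. Such a split could hide a pairing, so these correlations cannot decide it. Depth limits cKO replicates 1 and 3 of day 9, with 4029189 and 4334724 counts outside structural RNA against 22908034 in replicate 2.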
